A study of Saccharomyces cerevisiae with 20 samples.

Results

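The genes described are 7 genes of the galactose pathway, GAL1, GAL2, GAL3, GAL4, GAL7, GAL10 and GAL80, together with MIG1, which encodes a repressor that acts in glucose. They were picked by gene name, with earlier results of these data known, and make 8 of the 7127 genes counted in the study. RNA was sequenced from 5 strains of the yeast Saccharomyces cerevisiae, with 4 libraries per strain and 20 in all. BY4741 was labelled MATa with his3Delta1, leu2Delta0, met15Delta0 and ura3Delta0. CEN.PK2 was MATa, carried MAL2-8c and SUC2, and had the alleles trp1-289, leu2-3_112, his3Delta1 and ura3-52. D273-10B was labelled MATAlpha with mal as its allele. RM11-1a was MATa with leu2Delta0, ura3Delta0 and HO::kanMX. W303 was MATa with ura3-1, can1-100 and trp1-1, besides his3-11,15 and a mutant allele of leu2. No genotype named an allele of a galactose gene or of MIG1. All cultures grew untreated at 30 °C in synthetic complete medium with glucose and were taken in early exponential phase, at an optical density between 0.8 and 1.1. No library came from cells given galactose, so the values are levels in glucose.

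Total counts per library ran from 1311322 to 22979469, so that 3 counts, taken as the smallest level a library can show, equal 0.131 to 2.29 CPM, which are counts per 1000000 counts of the library. The library labelled RM11-1a replicate 2 went against its label. HO, replaced by kanMX in RM11-1a, was at 60.9 CPM there and at 0.0926, 0.234 and 0.327 CPM in the other 3 RM11-1a libraries. Calls that involve RM11-1a are therefore also given without it. In D273-10B, replicates 2 and 3 stood apart in the genes described, and pair calls with D273-10B are given without them as well, an alternative chosen after seeing the data. Genome-wide it was instead replicate 1 that differed most from the other D273-10B libraries. Its chi-square per degree of freedom against each of them was 424 to 870, while replicates 2, 3 and 4 gave 126 to 354 among themselves. STE2, the pheromone receptor of MATa cells, was at 1.47 to 5.17 CPM in D273-10B and nowhere under 46.2 CPM in the MATa strains.

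As background, yeast takes up galactose through the permease Gal2 and converts it through the Leloir pathway, in which the kinase Gal1, the transferase Gal7 and the epimerase Gal10 act together. The activator Gal4 binds upstream of these genes, its inhibitor Gal80 holds it silent, and the sensor Gal3 relieves that inhibition when galactose is present. In glucose the repressor Mig1 lowers transcription of GAL genes and of GAL4, so that the enzyme genes are known to be nearly silent in glucose-grown cells.

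GAL1, GAL10 and GAL7 lie side by side on chromosome II. In the R64 reference genome GAL1 (YBR020W) is at chrII:279021-280607 on the plus strand, GAL10 (YBR019C) at chrII:276253-278352 on the minus strand and GAL7 (YBR018C) at chrII:274427-275527 on the minus strand. GAL10 and GAL1 are transcribed away from each other across 668 bases with no other gene. The 300 bases of that stretch that hold all of its motif matches are shown because both genes share them, and they end 160 bases before the start of GAL1. Capitals mark the fixed letters of the Gal4 motif, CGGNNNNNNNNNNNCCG, which reads the same on both strands, and the whole of each Mig1 match. Mig1 was searched on both strands as CCGGGG or as GCGGGG, and further as CTGGGG or as GTGGGG. The stretch, chrII:278562-278861 on the plus strand of RefSeq's R64 sequence, holds 3 Gal4 and 2 Mig1 matches:
GAL1-GAL10 region: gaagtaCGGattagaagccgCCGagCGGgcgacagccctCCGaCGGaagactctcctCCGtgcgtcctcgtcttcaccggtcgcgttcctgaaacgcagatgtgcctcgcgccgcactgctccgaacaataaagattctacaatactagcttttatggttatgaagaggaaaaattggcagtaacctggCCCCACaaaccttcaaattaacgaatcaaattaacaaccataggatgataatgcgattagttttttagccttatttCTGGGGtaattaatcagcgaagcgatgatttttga
The single Gal4 matches of GAL7 (chrII:275697-275725, minus strand), GAL3 (chrIV:463140-463168, plus strand) and GAL80 (chrXIII:171416-171444, plus strand), the first of 4 in GAL2 (chrXII:289790-289818, plus strand) and the Mig1 match nearest to GAL4 (chrXVI:82434-82451, minus strand) are shown for comparison:
GAL7: agcgctCGGacaactgttgaCCGtgatcc
GAL3: cacgttCGGtccactgtgtgCCGaacatg
GAL80: atttacCGGcgcactctcgcCCGaacgac
GAL2: aggcacCGGcggtctttcgtCCGtgcgga
GAL4: atccttCCCCAGattttc
In the 500 bases before each gene, the Gal4 motif occurred 3 times before GAL1, in the same 3 places before GAL10, 4 times before GAL2 with 2 of those matches overlapping, and once before each of GAL3, GAL4, GAL7 and GAL80. Of 6000 such windows over the genome, 2.98% held at least 1 Gal4 match and 0.117% held at least 2. Mig1 matches numbered 4 before MIG1, 2 before each of GAL1, GAL10, GAL3 and GAL4, and 1 before GAL80, with 0 before GAL2 and GAL7. At least 1 such match was present in 22.7% of all windows and at least 2 in 3.633%, so a single Mig1 match is common. Part of the window before MIG1 lies within the neighbouring reading frame YGL034C, which holds all of its Mig1 matches except the nearest. The Gal4 match before GAL4 and the farther of its Mig1 matches lie within its neighbour YPL247C. The Mig1 match before GAL80 lies within its neighbour SUR7. The sequences are of the reference strain. Those of the other strains were not used here, and a match is a description of letters only.

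**Figure D1:**
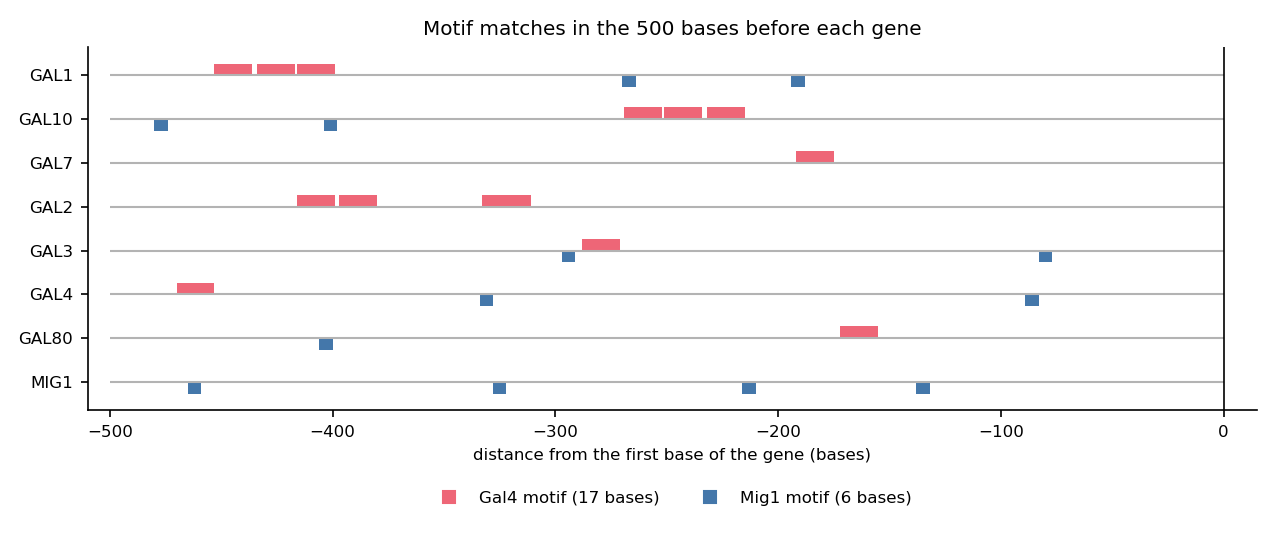
Matches to the Gal4 motif (17 bases, drawn above each line) and the Mig1 motif (6 bases, drawn below) in the 500 bases before each of the 8 genes, by distance in bases from the first base of the reading frame. The matches of GAL1 and GAL10 are the same 3 Gal4 and 2 Mig1 places seen from either end.

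In glucose the regulator GAL80 had by far the highest median level of the 8 genes, and the enzyme genes GAL10, GAL1 and GAL7 had the lowest. Per kilobase of exon, the median level over the 20 libraries was 22.9 CPM for GAL80, between 3.59 and 3.7 CPM for MIG1, GAL3, GAL2 and GAL4 in that order, 1.68 for GAL10, 1.1 for GAL1 and 0.383 for GAL7. The levels of single libraries overlapped between all of these 7. GAL80 was the highest of the 8 genes in every library except D273-10B replicates 2 and 3. In replicate 2, at 13.6 CPM per kilobase, it lay below GAL3 (38.0), GAL1 (32.3) and GAL2 (30.6), and in replicate 3, at 10.3, below GAL3 (31.5) and GAL2 (12.1). GAL7 was at or under 3 counts in 11 of the 20 libraries and GAL1 in 2, while each of the other 6 genes exceeded 3 counts in every library.

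Across strains, differences were called for the sensor GAL3 and the kinase GAL1, and in the comparison with RM11-1a also for the permease GAL2. All had their highest mean in D273-10B. For GAL1 that mean was set by replicate 2 alone, at 51.3 CPM against a mean of 2.17 CPM in the other D273-10B libraries. No difference among strains was called for the regulators GAL4 and GAL80, for GAL10 or for MIG1. In edgeR's quasi-likelihood F test for any difference among the 5 strains, with Benjamini-Hochberg adjustment over 6119 genes, GAL3 (adjusted p = 0.00306) and GAL1 (adjusted p = 0.00695) passed the threshold of 0.05. GAL2 (adjusted p = 0.0512), MIG1 (0.118), GAL10 (0.166), GAL4 (0.486) and GAL80 (0.786) did not pass edgeR's test. GAL7 fell to the filter on low counts and was not tested. The 2 genes called are 28.6% of the 7 tested, against 28.4% of all genes tested, so the share is at the background. Without the library labelled RM11-1a replicate 2, edgeR also called GAL2 (adjusted p = 0.0341) and GAL7, which then passed the filter (adjusted p = 0.0346), which made 4 of 8 against 29.1% of all genes. Without D273-10B replicates 2 and 3, GAL1 (adjusted p = 0.0108), GAL3 (0.00654) and GAL10 (0.0478) were called by edgeR, 3 of the 7 tested, where 17.7% of all genes were called.

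Between pairs of strains, 7 of 70 tests over the 7 genes and 10 pairs were called (10.0%, against 8.38% of all gene tests over the 10 pairs), and all 7 had D273-10B as the higher strain. GAL1 and GAL3 were called between D273-10B and BY4741, where 14.5% of all genes were. GAL1, GAL2 and GAL3 were called between RM11-1a and D273-10B, with a background of 18.4%, and GAL1 and GAL3 between W303 and D273-10B, with a background of 10.6%. The other 7 pairs held 0 calls of these genes. Their backgrounds were 6.65% for CEN.PK2 against BY4741, 5.47% for RM11-1a against BY4741, 2.11% for W303 against BY4741, 5.61% for D273-10B against CEN.PK2, 2.63% for W303 against CEN.PK2, 6.93% for RM11-1a against CEN.PK2 and 10.9% for W303 against RM11-1a. Comparisons that share a strain share its libraries and are not independent. In none of the 7 calls did the libraries of the strains separate without overlap. Over all 8 genes and 10 pairs, 7 of 80 separated so in unscaled CPM (8.75%), none of them a pair of GAL7 and none of them called. Over all genes tested, which leave out GAL7, the share was 14.9% of all gene tests. Strains that do not overlap stay apart whenever a library is left out. Leaving out the library labelled RM11-1a replicate 2 is therefore no test of these 7. The labels do not say whether the 4 libraries of a strain came from separate cultures, so p-values measure the spread between these libraries, which may be technical.

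**Figure D2:**
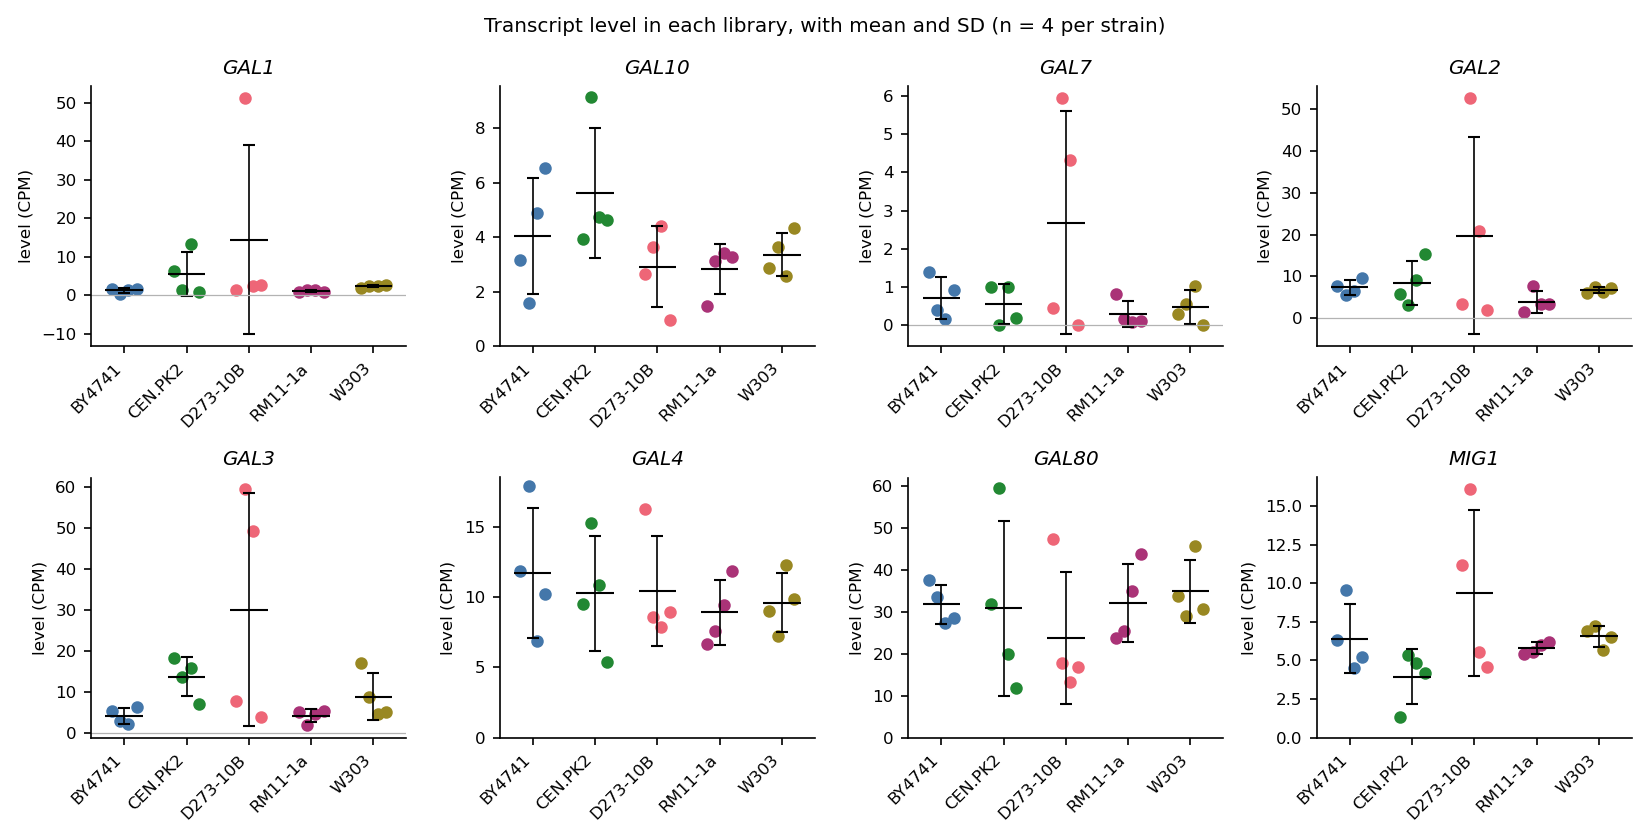
Level of each gene in CPM in each of the 20 libraries (points), with the mean and SD of the 4 libraries of each strain (bars). In D273-10B, GAL1 rises to 51.3 CPM in 1 library only, GAL2 and GAL3 are raised in 2, and GAL4, GAL10 and GAL80 are not raised in those libraries.

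GAL1 encodes galactokinase, the first enzyme of the pathway, which can also act as a sensor of galactose like Gal3. In D273-10B its level was 1.33, 51.3, 2.43 and 2.77 CPM in replicates 1 to 4. In CEN.PK2 it was 6.39, 1.53, 13.4 and 1.01 CPM, in W303 2.0, 2.35, 2.57 and 2.65 CPM, in BY4741 1.76, 0.399, 1.35 and 1.74 CPM, and in RM11-1a 0.817, 1.34, 1.3 and 0.935 CPM. A single D273-10B library was thus high, the other 3 lay within the range of the remaining strains, and 2 of 4 CEN.PK2 libraries were the next highest of the 20.

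The high library held 621 GAL1 counts, which gives 51.3 CPM with a 95% Wilson interval of 47.4 to 55.5 CPM. That interval, like the others below, covers counting error only, since PCR copies of a molecule are counted separately. The level was 29.6 times the median of the other 19 libraries, 1.74 CPM. The strain mean of D273-10B was 14.5 ± 24.6 CPM (SD, n = 4), against 5.58 ± 5.74 in CEN.PK2, 2.39 ± 0.29 in W303, 1.31 ± 0.636 in BY4741 and 1.1 ± 0.262 in RM11-1a. Of the neighbours in this order, no pair differed in the test, and the SD of D273-10B exceeded its mean.

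By edgeR, GAL1 was higher in D273-10B than in BY4741 by 3.68 on the log2 scale (SE 0.996, adjusted p = 0.0184). GAL1 in RM11-1a fell by 4.00 (SE 0.981, adjusted p = 0.00839) and in W303 by 2.96 (SE 0.936, adjusted p = 0.0477) relative to D273-10B, again by edgeR. Without D273-10B replicate 2 the first difference was 0.96, the second -1.29 and the last -0.24, and none of the 3 was called. Without the library labelled RM11-1a replicate 2, RM11-1a gave -4.11 (edgeR, SE 1.13, adjusted p = 0.0163) and W303 was no longer called (adjusted p = 0.0514). Leaving out any 1 of BY4741 replicates 2, 3 or 4 also ended the call against BY4741. With each of the 20 libraries left out in turn, edgeR called the difference from RM11-1a in 19 fits, that from BY4741 in 16 and that from W303 in 6. The exact permutation test of mean log2 CPM gave p = 0.114, 0.0571 and 0.686 for the 3 comparisons, where 4 against 4 libraries can give no p under 0.0286.

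W303 had the smallest SD of GAL1 relative to its mean (12.1%, against 23.9% in RM11-1a, whose SD in CPM was smaller), and its 4 libraries lay above all 4 of BY4741 and all 4 of RM11-1a. Neither difference was called by edgeR: W303 against BY4741 gave 0.72 (SE 1.03, adjusted p = 0.78) and W303 against RM11-1a 1.04 (SE 1.0, adjusted p = 0.521), or 1.15 without the library labelled RM11-1a replicate 2 (adjusted p = 0.527).

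GAL10 encodes the epimerase and mutarotase of the pathway and shares the region printed above with GAL1. Its level was 2.66, 3.64, 4.42 and 0.977 CPM in D273-10B, 3.95, 9.15, 4.73 and 4.65 CPM in CEN.PK2 and 3.16, 1.6, 4.88 and 6.53 CPM in BY4741. It was 1.47, 3.14, 3.43 and 3.27 CPM in RM11-1a and 2.87, 3.66, 2.57 and 4.33 CPM in W303. All 4 CEN.PK2 libraries lay above all 4 RM11-1a libraries, and every other pair of strains overlapped. RM11-1a against CEN.PK2 gave -1.17 on the log2 scale (SE 0.423), which edgeR did not call (adjusted p = 0.107), nor without the library labelled RM11-1a replicate 2 (-1.22, adjusted p = 0.127).

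In D273-10B replicate 2, where GAL1 was 29.6 times the median of the other libraries, GAL10 was 1.06 times its own, at 3.64 CPM (44 counts, 95% Wilson interval 2.71 to 4.88). Per kilobase of exon, GAL1 there was 18.7 times GAL10. Over the 20 libraries this ratio ran from 0.221 to 18.7 with a median of 0.73, and it exceeded 1 in 5 libraries. An annotated antisense RNA, YNCB0008W on the plus strand, overlaps both genes and is not a row of the count table. Whether counting used strand is not given in the sources used here, so reads of GAL10 and of this RNA cannot be told apart. GAL1 lies on the same strand as this RNA, so strand could not separate their reads where they overlap. The levels of GAL1 and its ratio to GAL10 carry this limit too.

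GAL7 encodes the uridylyltransferase and was the lowest of the 8 genes. It reached 5.95 CPM (72 counts, 95% Wilson interval 4.72 to 7.49) in D273-10B replicate 2 and 4.33 CPM (50 counts, 3.29 to 5.71) in replicate 3, with 3 and 0 counts in the other 2 D273-10B libraries. The 16 libraries of the other 4 strains held between 0 and 20 counts, at most 1.4 CPM. Both raised D273-10B libraries therefore lay above all 18 others, while the other 2 were at the floor. Strain means were 2.68 ± 2.92 CPM in D273-10B (SD, n = 4), 0.72 ± 0.552 in BY4741, 0.55 ± 0.532 in CEN.PK2, 0.474 ± 0.435 in W303 and 0.294 ± 0.349 in RM11-1a.

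With no filter on low counts, edgeR gave GAL7 an adjusted p of 0.0238 for any difference among strains. On that setting GAL7 was lower than in D273-10B by -3.66 (SE 1.03, adjusted p = 0.0188) in RM11-1a and by -3.19 (SE 1.01, adjusted p = 0.0466) in W303, in log2 units by edgeR, where 26.9%, 16.7% and 10.7% of all genes were called in these 3 tests. Without the library labelled RM11-1a replicate 2, GAL7 passed the filter and gave -3.5 for RM11-1a against D273-10B (edgeR, SE 1.14, adjusted p = 0.038; background 17.4%). In that fit W303 against D273-10B was -3.13 and was not called by edgeR (adjusted p = 0.0514). GAL7 fell to the filter again without D273-10B replicates 2 and 3 and was not tested.

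**Figure D3:**
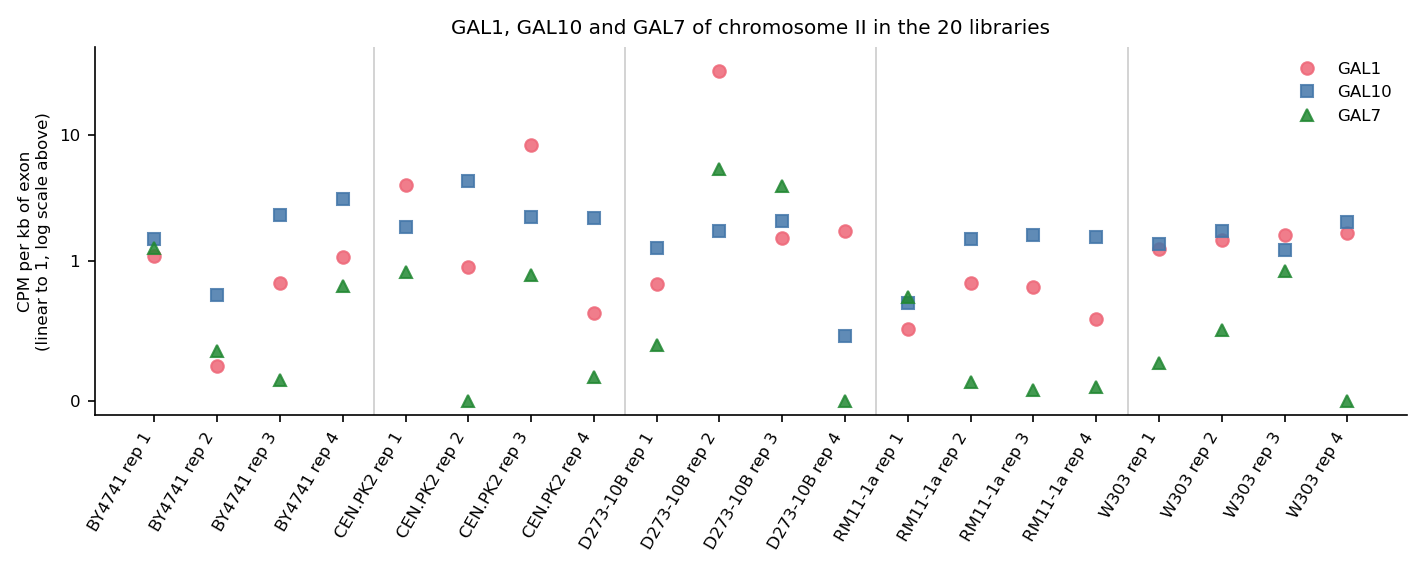
GAL1, GAL10 and GAL7 in each of the 20 libraries in CPM per kilobase of exon, on a scale that is linear to 1 and logarithmic above. In D273-10B replicate 2, GAL1 stands at 32.3 and GAL7 at 5.4 while GAL10 is at 1.73, and in D273-10B replicate 3 GAL7 (3.94) is above both GAL10 (2.1) and GAL1 (1.53).

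GAL2 encodes the galactose permease, which also carries glucose (YLR081W, chrXII:290212-291936, plus strand). In D273-10B it was at 3.25, 52.8, 20.9 and 1.95 CPM. It was at 7.73, 5.58, 6.4 and 9.51 CPM in BY4741, 5.83, 3.05, 9.09 and 15.3 CPM in CEN.PK2, 1.47, 7.61, 3.24 and 3.27 CPM in RM11-1a and 5.92, 7.51, 6.17 and 7.22 CPM in W303. D273-10B thus held both the 2 highest libraries of the 20 and 2 of the lower ones, and it overlapped with every strain.

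The mean of D273-10B was 19.7 ± 23.7 CPM (SD, n = 4), followed by 8.33 ± 5.28 in CEN.PK2, 7.3 ± 1.71 in BY4741, 6.71 ± 0.779 in W303 and 3.9 ± 2.62 in RM11-1a. No neighbours in this order differed in the test. GAL2 was called in 1 pair: in RM11-1a its fitted level was 0.158 times that of D273-10B (edgeR, log2 SE 0.77, adjusted p = 0.0213), with an exact permutation p of 0.286. The highest RM11-1a library was the one labelled replicate 2, and without it edgeR gave -3.21 on the log2 scale (SE 0.864, adjusted p = 0.0144). The call was lost without D273-10B replicate 2 (-1.56) and without any 1 of RM11-1a replicates 1, 3 or 4.

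GAL3 encodes the sensor that relieves the inhibition of Gal4 by Gal80 (YDR009W, chrIV:463434-464996, plus strand). Its level was 7.83, 59.4, 49.2 and 3.74 CPM in D273-10B and 18.2, 13.7, 15.9 and 6.98 CPM in CEN.PK2. In W303 it was 16.9, 8.73, 4.63 and 5.06 CPM, in BY4741 5.27, 2.79, 2.02 and 6.2 CPM and in RM11-1a 5.06, 1.79, 4.63 and 5.26 CPM. The 2 high D273-10B libraries were the highest of all 20, and all 4 CEN.PK2 libraries lay above all 4 of BY4741 and all 4 of RM11-1a.

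GAL3 was higher in D273-10B (30.1 ± 28.4 CPM, SD, n = 4) than in BY4741 (4.07 ± 1.98) by 3.21 on the log2 scale (edgeR, SE 0.709, adjusted p = 0.00574). In RM11-1a (4.19 ± 1.62) it fell by 3.18 relative to D273-10B (edgeR, SE 0.694, adjusted p = 0.00413), and in W303 (8.82 ± 5.68) by 2.07 (edgeR, SE 0.658, adjusted p = 0.0481). CEN.PK2 (13.7 ± 4.83) stood second, and of the neighbours in this order no pair was called. Exact permutation p-values for the 3 called pairs were 0.114, 0.114 and 0.343. The 2 larger differences were called by edgeR with each of the 20 libraries left out in turn, between -3.53 and -2.66 for RM11-1a against D273-10B. Without the library labelled RM11-1a replicate 2 that difference was -2.94 (edgeR, SE 0.757, adjusted p = 0.0111). The difference with W303 was called in 6 of 20 such fits. Without D273-10B replicates 2 and 3 together, the difference from BY4741 dropped to 0.54 (edgeR, SE 0.526, adjusted p = 0.734) and that of RM11-1a to -0.51 (edgeR, SE 0.514, adjusted p = 0.611), and W303 gave 0.61 (edgeR, adjusted p = 0.792).

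Without D273-10B replicates 2 and 3, none of the 8 genes was called in a pair with D273-10B, and 5 calls involved CEN.PK2. GAL1 was then at 0.76 for D273-10B against BY4741, -1.09 for RM11-1a and -0.05 for W303 against D273-10B, and GAL2 at 0.50 for RM11-1a against D273-10B. D273-10B then rested on 2 libraries. The background was 8.31% of all genes for CEN.PK2 against BY4741 and 8.26% for RM11-1a against CEN.PK2. GAL3 was higher in CEN.PK2 than in BY4741 by 1.99 (edgeR, SE 0.435, adjusted p = 0.00945) and fell by 1.96 in RM11-1a relative to CEN.PK2 (edgeR, SE 0.421, adjusted p = 0.00553). GAL1 gave 2.38 for CEN.PK2 against BY4741 (edgeR, SE 0.618, adjusted p = 0.0249) and -2.72 for RM11-1a against CEN.PK2 (edgeR, SE 0.603, adjusted p = 0.0071), and GAL2 -1.62 for the latter pair (edgeR, SE 0.472, adjusted p = 0.0397). With all 20 libraries the same 5 differences had nearly the same sizes, for example 1.99 (SE 0.691) for GAL3 in CEN.PK2 against BY4741, and none was called, at edgeR's adjusted p = 0.0859 to 0.223. All strains share 1 estimate of the spread in the test, and the standard errors of these 5 were smaller without the 2 libraries. With the library labelled RM11-1a replicate 2 left out as well, a setting also chosen after seeing the data, the same 5 were called by edgeR. In RM11-1a against CEN.PK2 (background 10.4%) GAL1 was then at -2.83 (adjusted p = 0.00962), GAL2 at -2.16 (0.00483) and GAL3 at -1.73 (0.0119) by edgeR. In CEN.PK2 against BY4741 (background 9.41%) edgeR gave 2.39 for GAL1 (adjusted p = 0.0229) and 1.99 for GAL3 (0.0053).

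**Figure D4:**
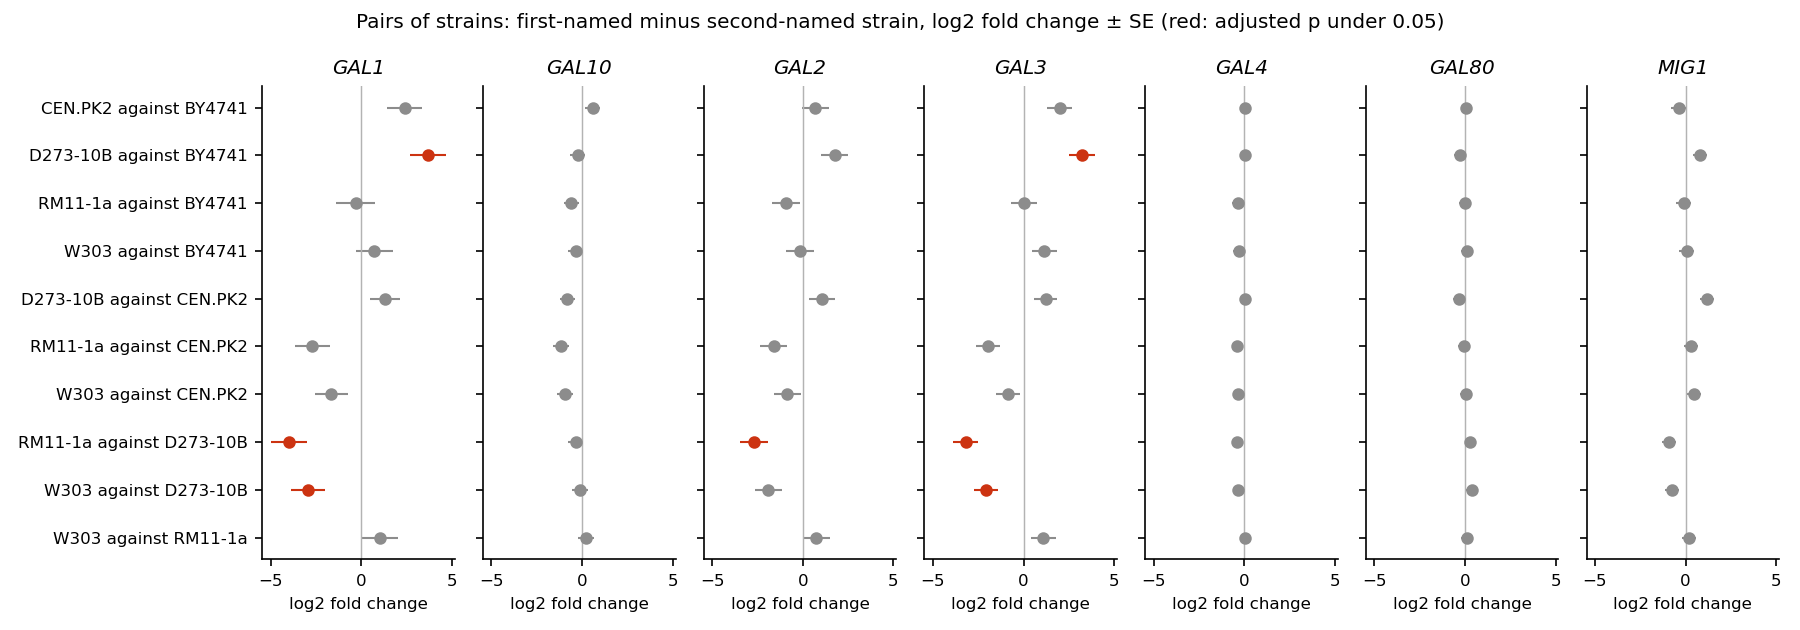
Log2 fold change between each of the 10 pairs of strains for the 7 genes tested, first-named minus second-named strain, with SE; red points have an edgeR adjusted p under 0.05. The 7 red points are in GAL1, GAL2 and GAL3 and all involve D273-10B, while GAL4 and GAL80 stay within 0.42 and 0.39 of 0.

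GAL4 encodes the activator of the pathway (YPL248C, chrXVI:79711-82356, minus strand). It was at 16.3, 8.59, 7.89 and 8.95 CPM in D273-10B, and from 5.4 to 17.9 CPM over the other 16 libraries, with 104 and 91 counts in D273-10B replicates 2 and 3. Strain means lay between 8.92 ± 2.3 CPM in RM11-1a and 11.7 ± 4.64 CPM in BY4741 (SD, n = 4), and the largest fold change of the 10 pairs was 0.42 on the log2 scale. No pair of strains separated without overlap. An annotated antisense RNA, YNCP0002W on the plus strand, overlaps GAL4, and without strand its reads cannot be told apart from those of GAL4.

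GAL80 encodes the inhibitor of Gal4 (YML051W, chrXIII:171594-172901, plus strand). Its level was 47.3, 17.8, 13.4 and 16.8 CPM in D273-10B, 32.0, 59.5, 20.0 and 11.8 CPM in CEN.PK2 and 37.6, 33.5, 27.4 and 28.6 CPM in BY4741. Libraries of RM11-1a lay between 23.7 and 43.8 CPM and those of W303 between 29.1 and 45.8 CPM. The 2 D273-10B libraries with high GAL3 were among the lowest for GAL80, and so was D273-10B replicate 4, where GAL3 was at 3.74 CPM. The strain means, 23.8 ± 15.8 CPM in D273-10B to 34.9 ± 7.51 CPM in W303 (SD, n = 4), differed by less than the spread within D273-10B or CEN.PK2. The largest fold change of the 10 pairs was 0.39 on the log2 scale.

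GAL80 exceeded GAL4 per kilobase of exon in all 20 libraries, by 3.45 to 8.14 times with a median of 6.58. The lowest ratio of all was in D273-10B replicate 3. GAL1 per kilobase was below GAL3 in all 20 libraries, at 0.0486 to 0.851 of it, with a median of 0.276. Both the extremes of the latter ratio were in D273-10B, 0.851 in replicate 2 and 0.0486 in replicate 3, although GAL3 was high in both.

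MIG1 encodes a zinc finger repressor that acts with Tup1 and Cyc8 and leaves the nucleus when the kinase Snf1 phosphorylates it (YGL035C, chrVII:431548-433062, minus strand). Its level was 11.2, 16.1, 5.55 and 4.56 CPM in D273-10B, 6.32, 9.57, 4.54 and 5.21 CPM in BY4741 and 1.37, 5.34, 4.86 and 4.21 CPM in CEN.PK2. In RM11-1a it was 5.39, 5.52, 6.02 and 6.19 CPM, and in W303 6.88, 7.23, 5.65 and 6.5 CPM. In CPM, which is not scaled by TMM, the RM11-1a and W303 libraries each fell in a narrow range above all 4 CEN.PK2 libraries. The other pairs overlapped. Over TMM-scaled library sizes neither separation holds. The 67 counts of 10581716 in CEN.PK2 replicate 4 exceed 65 of 11764649 in RM11-1a replicate 3 and 11 of 2220781 in W303 replicate 3.

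MIG1 means were 9.36 ± 5.38 CPM in D273-10B (SD, n = 4), 6.56 ± 0.675 in W303, 6.41 ± 2.23 in BY4741, 5.78 ± 0.386 in RM11-1a and 3.94 ± 1.78 in CEN.PK2. The difference of D273-10B from CEN.PK2 was 1.19 on the log2 scale (SE 0.395), which edgeR did not call (adjusted p = 0.0812). RM11-1a and W303 gave 0.28 (SE 0.397, adjusted p = 0.766) and 0.45 (SE 0.4, adjusted p = 0.503) against CEN.PK2 by edgeR, and the former gave 0.29 without the library labelled RM11-1a replicate 2 (adjusted p = 0.785), from a test that scales the libraries by factors of 0.6652 to 1.258.

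Of the 8 genes, 5 had the highest level of all 20 libraries in D273-10B replicate 2, namely GAL1, GAL2, GAL3, GAL7 and MIG1. Among all 6119 genes tested, which leave out GAL7, 486 did, or 7.94%. Replicate 2 was singled out for its levels of the 8 genes, so a share above that background is built into the choice. Replicate 3 was second highest for GAL2, GAL3 and GAL7 but not for GAL1, at 2.43 CPM, or MIG1, at 5.55 CPM. The summed level of the 8 genes was 216 CPM in replicate 2, 108 CPM in replicate 3 and 39.7 CPM in replicate 4, all libraries whose numbers start with 69. Replicate 1, with a number starting with 66, had 90.3 CPM, of which GAL80 gave 47.3. Among libraries starting with 69 alone, GAL3 differed between D273-10B and BY4741 by 3.66 (edgeR, adjusted p = 0.0254) and W303 against D273-10B by -3.31 (edgeR, adjusted p = 0.0289), with backgrounds of 19.9% and 23.0%. GAL1 for D273-10B against BY4741 was 4.43 there and was not called by edgeR (adjusted p = 0.0639).

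Of the 7 calls, only GAL3 between D273-10B and BY4741 was kept when the start of the library number was added to the model, at 3.20 (edgeR, adjusted p = 0.0138; background 14.2%). The other 2 GAL3 differences and that of GAL2 had nearly the same sizes there, with larger standard errors. GAL3 gave -3.11 for RM11-1a (SE 0.965, adjusted p = 0.057) and -2.05 for W303 (SE 0.792, adjusted p = 0.103) against D273-10B, and GAL2 -2.71 for RM11-1a (SE 0.994, adjusted p = 0.0977), all by edgeR. GAL1 was at 3.05 for D273-10B against BY4741 (adjusted p = 0.0588), -2.53 for RM11-1a (0.203) and -2.39 for W303 (0.122) against D273-10B by edgeR. RM11-1a has no library starting with 69, so its difference from D273-10B was not available within that set.

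**Figure D5:**
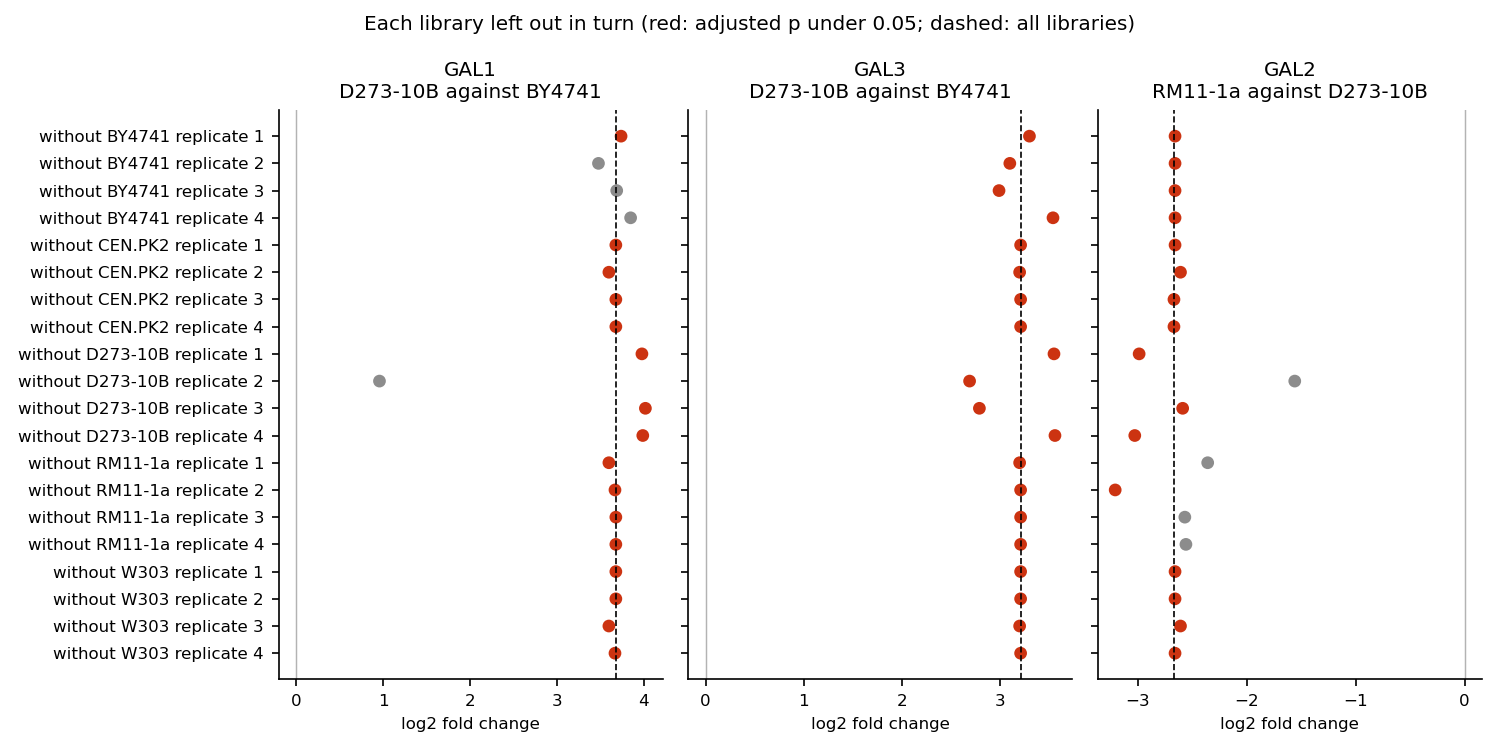
Log2 fold change of 3 called differences with each of the 20 libraries left out in turn (points; red where edgeR's adjusted p is under 0.05), with the value from all libraries dashed. GAL1 in D273-10B against BY4741 drops from 3.68 to 0.96 without D273-10B replicate 2, GAL3 reaches at most 3.56 and is red throughout, and GAL2 in RM11-1a against D273-10B ranges from -3.21 to -1.56.

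The pathway around these genes was followed in 35 further genes, of which 14, or 40.0%, differed among strains in edgeR's F test, against 28.4% of all genes. The count was 13 without the library labelled RM11-1a replicate 2, where 29.1% of all genes were called, and 13 without D273-10B replicates 2 and 3, where 17.7% were. SNF1 and MTH1 were lost in both settings, SUC2 was gained in the former and TUP1 in the latter. The median range of strain means was 1.15 log2 units for these 35, 1.17 for the 8 genes described and 1.04 for all genes tested. Only 1 of the 35 was highest in D273-10B replicate 2. The 5 of the 8 genes that were are no fair comparison, since that library was singled out for its levels of the 8.

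Of 8 partners of the galactose pathway, 4 were called (50.0%, against 28.4% of all genes). PGM2, the phosphoglucomutase that links the pathway to glycolysis, was at 21.3 ± 18.1 CPM in CEN.PK2 (SD, n = 4) and 151 ± 68.3 CPM in BY4741, a log2 difference of -2.76 (edgeR, SE 0.465, adjusted p = 0.00136). UGP1, which makes UDP-glucose, was at 110 ± 64.7 CPM in CEN.PK2 and 595 ± 130 CPM in BY4741, a difference of -2.28 (edgeR, SE 0.465, adjusted p = 0.00559). GCY1, a glycerol dehydrogenase whose gene Gal4 is known to induce, was raised in RM11-1a alone among the pairs called, at 255 ± 208 CPM against 24.9 ± 10.1 to 35.7 ± 8.75 CPM in the other 4 strains. Its RM11-1a libraries were at 87.7, 89.6, 520 and 321 CPM, all above every other library. RM11-1a stood above D273-10B in GCY1 by 3.15 when the library labelled RM11-1a replicate 2 was left out (log2, edgeR, SE 0.432, adjusted p = 2.97e-05). FUR4, the uracil permease that lies next to GAL1, was highest in W303 at 17.6 ± 7.16 CPM. PGM1, PCL10, LAP3 and MED15, listed as GAL11 in the annotation, did not pass.

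Of 17 genes of glucose repression, 6 were called (35.3%, against 28.4% of all genes), SNF1, SIP2, CYC8, MIG2, MIG3 and NRG1. SNF1 did not pass edgeR's F test without the library labelled RM11-1a replicate 2 (adjusted p = 0.0696) or without D273-10B replicates 2 and 3 (0.158). NRG1, a repressor of glucose-repressed genes, was at 94.4, 86.6, 79.7 and 107 CPM in D273-10B and no more than 47.9 CPM in any other library, so D273-10B stood above all 16. Its difference from BY4741 was 2.60 on the log2 scale (edgeR, SE 0.44, adjusted p = 0.000737). It was 2.65 without D273-10B replicates 2 and 3 (edgeR, SE 0.507, adjusted p = 0.00447). MIG2, the paralogue that acts beside Mig1, was at 225 ± 41.5 CPM in BY4741 and 35.9 ± 10.9 CPM in CEN.PK2 (SD, n = 4), a difference of -2.39 (edgeR, SE 0.493, adjusted p = 0.00614). In the library labelled RM11-1a replicate 2 MIG2 was at 225 CPM, as in the BY4741 mean, and in the other RM11-1a libraries at 35.0 to 42.6 CPM.

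SNF1, the kinase acting on Mig1, and CYC8, the co-repressor, were lower in RM11-1a than in D273-10B by -1.25 (edgeR, SE 0.4, adjusted p = 0.0352) and -1.19 (edgeR, SE 0.315, adjusted p = 0.0127). SIP2, a subunit of the Snf1 complex, was higher in that comparison by 1.12 (edgeR, SE 0.255, adjusted p = 0.00534). MIG3, a relative of Mig1, gave -0.84 there (edgeR, SE 0.284, adjusted p = 0.0445). SNF1 was no longer called by edgeR (adjusted p = 0.0867) without the library labelled RM11-1a replicate 2, and the other 3 were. Without D273-10B replicates 2 and 3, SNF1 (adjusted p = 0.3) and CYC8 (0.0555) were not called by edgeR in this pair. The hexokinase HXK2, the phosphatase genes REG1 and GLC7 and the co-repressor TUP1 were among the 11 that did not pass.

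Of 10 genes known to be repressed through Mig1, 4 were called (40.0%, against 28.4% of all genes), HXK1, EMI2, MTH1 and HXT2. All 4 had their highest mean in BY4741 and their lowest in CEN.PK2. Of the genes not called, HXT4 and CAT8 had their highest mean in CEN.PK2. SUC2, JEN1, REG2 and FBP1 had theirs in BY4741 but their lowest in D273-10B or W303. HXK1, a hexokinase, was at 29.7 ± 30 CPM in CEN.PK2 (SD, n = 4), 89.1 ± 10.3 in W303, 173 ± 106 in D273-10B, 350 ± 134 in RM11-1a and 388 ± 115 in BY4741. CEN.PK2 was thus lowest for HXK1, where GAL3 was second highest, and differed from BY4741 by -3.69 (edgeR, SE 0.621, adjusted p = 0.00136). EMI2 (-1.89, edgeR, SE 0.393, adjusted p = 0.00642) and the glucose transporter gene HXT2 (-2.97, edgeR, SE 0.775, adjusted p = 0.0269) were also lower in CEN.PK2 than in BY4741. MTH1, a regulator of hexose transporters, had its highest mean in BY4741, 72.5 ± 48.7 CPM, and no pair was called. In D273-10B, SUC2 fell by 1.83 relative to BY4741 (edgeR, SE 0.572, adjusted p = 0.0371), although its F test did not pass (adjusted p = 0.0553, edgeR). That F test passed without the library labelled RM11-1a replicate 2 (edgeR adjusted p = 0.0259), and without D273-10B replicates 2 and 3 the difference was not called (adjusted p = 0.387). MTH1 did not pass the F test without the library labelled RM11-1a replicate 2 or without D273-10B replicates 2 and 3. No gene of the list was called higher in D273-10B than in BY4741.

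The genes that flank the chromosome II cluster were not at their highest in D273-10B replicate 2. There FUR4, which starts 835 bases beyond GAL1, was at 4.38 CPM and KAP104, beyond GAL7, at 31.2 CPM, against strain means of 4.82 to 17.6 and 20.6 to 29.4 CPM. TRP1, 917 bases before GAL3, was at 42.7 CPM there, and its strain means ran from 10.2 ± 2.14 CPM in W303 and 26.9 ± 3.34 in CEN.PK2 (SD, n = 4), both labelled with trp1 alleles, to 70.8 ± 13.6 in RM11-1a (edgeR adjusted p = 2.83e-06 for any difference). SRL2, beyond GAL2, was at 70.3 CPM in D273-10B replicate 2 against a D273-10B mean of 40.4 ± 27.9, and VIR1, beyond MIG1, at 31.2 CPM against 12.9 ± 12.3. Neither SRL2 (adjusted p = 0.0949) nor VIR1 (0.0581) was called by edgeR.

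The genes whose pattern was most like that of GAL1 and GAL3 were found by the root mean square difference of log2 CPM over the 20 libraries, each gene centred on its own mean. For GAL1 these were SRL4 (0.732), the ribonucleotide reductase gene RNR3 (0.776) and the meiotic chromosome gene RED1 (0.884), where the median gene was at 1.55. All 3 were high in D273-10B replicate 2, at 20.3, 49.2 and 75.3 CPM, against medians of 1.35, 3.16 and 4.34 CPM in the other 19 libraries. For GAL3 they were YSP2 and YPL150W, both at 0.678, and PAN1, a gene of endocytosis, at 0.715, with a median gene at 1.47. YSP2, YPL150W and PAN1 were at 62.2, 69.7 and 201 CPM in D273-10B replicate 2, against medians of 8.08, 7.58 and 31.0 CPM. Both sets were picked for likeness to GAL1 or GAL3, which were high in that library. Their high values there are thus part of the choice and not a separate result. The other galactose genes were less alike: GAL3 stood at 1.06, GAL2 at 1.15 and GAL10 at 1.41 from GAL1.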

How the data were processed

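The authors deposited raw read counts per gene for 20 Smart-seq2 libraries (75-base single-end reads), 1 column each, with no normalization. STAR and Salmon are named per the submitters' processing notes. Their role and versions, the strand setting and the genome build are not given in the sources used here. Columns were matched to samples by library number. Titles were followed for 2 RM11-1a columns that carry another replicate number. All columns were used.

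Gene names, coordinates (1-based) and sequence come from RefSeq's R64 genome, which annotated 6047 of 7127 identifiers (84.8%). All 8 genes have 1 exon, and none of their 75-base windows occurs elsewhere in that genome.

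CPM is a gene's count over the library total. Tests used edgeR 4.0.16 in R 4.3.3: filterByExpr left 6119 genes, TMM scaled the libraries, and strain was the only term of the quasi-likelihood model, fitted to all 20 libraries (15 residual degrees of freedom). The threshold was 0.05 after Benjamini-Hochberg adjustment over those genes. Fold changes are scaled by TMM and need not equal ratios of CPM means. Exact permutation tests were two-sided and unadjusted.

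The 8 genes and the gene lists were chosen with earlier results of these data known. All 8 are named, as are their neighbours, at most 6 called genes per list by range of strain means, and the 3 genes most like each called gene. SIP1 and NRG2, called in 1 pair each, fell outside that rule, and so did SUC2, which was named after its values were seen.

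No libraries of a strain agreed within sampling noise (chi-square per degree of freedom 13.4 to 870 over 30 pairs). Alternatives were DESeq2 1.42.0 as the test or for size factors, no filter, a mean of at least 10 CPM, thinning to the smallest library, replicate or library-number blocks, a gene length correction, 2 strains at a time, fits within a library-number series, and leaving out libraries. The procedure was tested on simulated data.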

Additional observations from a re-analysis of the deposited data

Results flagged for a closer look

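The gap between 1 library and its nearest neighbour was taken as a share of the range of each group of 4 libraries. It exceeded 0.829 in 6 of 40 groups (8 genes in 5 strains). For 4 independent, normally distributed values chance gives this in about 1 of 20 groups. The levels of GAL7 were near the floor and the 40 groups share libraries, so that rate need not hold here. GAL1 in D273-10B had the widest gap (0.971 of the range), set by replicate 2 at 51.3 CPM. GAL4 (16.3 CPM) and GAL80 (47.3 CPM) were each set apart in D273-10B by replicate 1, with gaps of 0.873 and 0.872 of the range. CPM is not scaled by TMM, whose factor was 1.258 in that library and 0.7618 to 0.8769 in D273-10B replicates 2 to 4. Such scaling brings replicate 1 closer to these libraries for both genes, and gaps of scaled levels were not computed. GAL10 in CEN.PK2 had its highest library in replicate 2 at 9.15 CPM, a gap of 0.851. That library is the smallest of the 20, and the value rests on 12 counts. In RM11-1a, replicate 1 was the highest for GAL7, at 0.817 CPM from 5 counts, and the lowest for GAL10, at 1.47 CPM from 9 counts, with gaps of 0.922 and 0.851. In unscaled CPM, the D273-10B libraries set apart were thus replicate 2 for the kinase gene and replicate 1 for the activator and inhibitor genes. The causes were not tested.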

How the results depend on the processing

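Counts of calls depended on the setting, and the cause was not tested except where stated. Of the 8 genes, 2 were called among strains with all libraries (28.4% of all genes), 4 with no filter (26.9%), and 1 each with a mean of at least 10 CPM, which removed GAL1 and other low genes (27.0%), with thinning (21.5%) and with a library series block (19.4%). Without D273-10B replicates 2 and 3 and the library labelled RM11-1a replicate 2, 4 were called (20.2%). Leaving out 1 library gave 2 to 4 (20.9% to 49.8%). Of the 7 pair calls (8.38% of all gene tests), DESeq2 as the test kept all 7 among 11 calls (12.8%). The mean of 10 CPM kept 3 and made no other (7.92%), thinning kept 3 and added MIG1 in RM11-1a against D273-10B, 4 in all (5.97%), the replicate block kept 4 (7.7%) and the library series block 1 (5.93%). With 2 strains at a time 0 of the 7 were kept, and the 3 calls made (6.55%) were GAL3 in CEN.PK2 against BY4741 and in RM11-1a against CEN.PK2, and GAL1 in W303 against RM11-1a. Leaving out 1 library kept 2 to 7 among 4 to 16 calls (5.97% to 15.9%). The 16 calls came without D273-10B replicate 1, where all 7 were kept and 15.9% of all gene tests were called. The 9 added there fell on GAL1, GAL2, GAL3, GAL7 and MIG1. Over the 6 pairs of library series 69, 4 calls became 2 within that series. Replicate numbers were not taken to pair the libraries, since libraries with the same number deviated together at r = -0.356 to 0.382 over 40 pairs, 13 of them over 0.1. Of all genes, 1736 were called, 1157 with thinning, 1090 without D273-10B replicates 2 and 3, and 1279 to 3090 with 1 library left out. The pathway genes, 14 with all libraries, ran from 10 to 22 with 1 left out.

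Without D273-10B replicates 2 and 3, D273-10B against CEN.PK2 reversed to -1.63 for GAL1, -2.11 for GAL2 and -1.45 for GAL3. GAL2 reversed to -1.42 for D273-10B against BY4741, 0.5 for RM11-1a against D273-10B and 1.26 for W303 against D273-10B, and GAL3 to 0.61 for the last pair. Among these differences, edgeR with all libraries called only GAL2 for RM11-1a and GAL3 for W303, each against D273-10B. Without the 2 D273-10B libraries it called none, and D273-10B then rested on 2 libraries. With the RM11-1a library left out too, D273-10B against CEN.PK2 was -1.64 for GAL1 and -2.12 for GAL2. With 1 library left out, D273-10B against CEN.PK2 ran from -1.42 to 2.2 for GAL1 and from -0.05 to 1.73 for GAL2, the lowest in each case without D273-10B replicate 2. Libraries of low depth limit GAL7 and GAL1, where 3 counts equal up to 2.29 CPM.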
